A study of Mus musculus with 11 samples.

Results

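The respiratory chain subunits are the genes whose products make up complexes I to IV of the electron transport chain and the ATP synthase, here called complex V. They were taken by gene name from the 2 deposited tables of knockout and WT expression: mt-Nd, mt-Co, mt-Atp and mt-Cytb genes of the mitochondrial genome, and Nduf, Sdh, Uqcr, Cox4 to Cox8 and Atp5 genes of the nuclear genome, without pseudogenes. In all 95 of 20348 genes matched, 12 of them mitochondrially and 83 nuclear encoded, and 92 were rows of both tables. The nuclear members held 37 genes of complex I, 4 of complex II, 8 of complex III, 17 of complex IV and 17 of complex V, and Ndufa4 and Ndufa4l2 were placed in complex IV. The mitochondrial members held 6 genes of complex I, 1 of complex III, 3 of complex IV and 2 of complex V.

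The RNA was that of mesenchymal stromal cells, plastic-adherent progenitors of bone, fat and cartilage, taken as primary cells out of mouse bone marrow. There were 3 libraries from ANXA2 knockout, 4 from ANXA5 knockout and 4 from WT C57/BL6 mice, all untreated, and the labels give no age and no allele of either knockout. ANXA2 and ANXA5 are annexins, which bind membrane phospholipids when calcium is present. The labels do not say whether libraries of a group came from separate animals or cultures, so p-values measure only the spread between these libraries. The knockouts were deposited in separate tables, each scaled together with the same WT libraries, and the ANXA2 knockout libraries are called 1, 3 and 4 after their columns.

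The respiratory chain passes electrons from NADH and succinate to oxygen and pumps protons across the inner mitochondrial membrane, and ATP synthase uses the returning protons to make ATP. Its complexes, apart from complex II, are built from subunits of both genomes, so cells have to match output from mitochondrial DNA with output from many nuclear genes. Mitochondrial mRNAs are cut from long transcripts that span most of the circular genome, while each nuclear subunit gene has its own promoter. Bone marrow stromal progenitors are known to lean on glycolysis and to raise respiration when they differentiate.

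The libraries held 23.3 to 35.7 M reads on the genes of the tables. Anxa2 stood at 8542 ± 1691 normalised reads in ANXA2 knockout and 29822 ± 1354 in WT libraries (SD, n = 3 and 4; log2 difference -1.82), and Anxa5 at 2359 ± 57.4 in ANXA5 knockout and 25529 ± 1704 in WT libraries (SD, n = 4 each; log2 difference -3.43). Both targets passed limma's test, with adjusted p of 0.00191 and 1.91e-08. All 12 stromal markers, Col1a1 and Pdgfrb among them, were present, and so were all 8 neutrophil markers, whose summed normalised counts ran from 272180.0 to 667711 in ANXA2 knockout and 294451 to 525311.5 in WT libraries of the ANXA2 table, and from 453266.5 to 625383 in ANXA5 knockout and 322029 to 576029 in WT libraries of the ANXA5 table. Of the 6 adipocyte markers, Plin1 and Cidec were in neither table and the other 4 were present in both. These 4 summed to 3202 to 6278 normalised reads in ANXA2 knockout and 4938 to 5855 in WT libraries of the ANXA2 table. Xist, which marks cells with an inactive X chromosome, differed within every group. Its normalised reads were 652, 226 and 203 in ANXA2 knockout libraries 1, 3 and 4, against 1829, 1997, 1.16 and 0.959 in WT libraries 1 to 4 of the same table. In the ANXA5 table they were 783, 2.07, 1676 and 528 in ANXA5 knockout libraries 1 to 4, against 2000.0, 2186, 1.29 and 1.05 in WT libraries.

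How far the mitochondrial genes can be read depends on copies of mitochondrial DNA in the nuclear genome, since a read that lies in both places cannot be assigned to 1 of them. Windows of 75 bases were taken along each mitochondrial gene and looked up in all annotated nuclear transcripts of GENCODE vM21 on GRCm38. Of the windows of mt-Co2, mt-Atp6, mt-Co3, mt-Nd3 and mt-Nd4l, 99.5%, 99.5%, 99.9%, 97.8% and 98.7% were also in a nuclear transcript. The share was 61.5% for mt-Nd4, 39.8% for mt-Co1, 5.7% for mt-Nd2 and 1.7% for mt-Nd5, and it was 0% for mt-Nd1, mt-Nd6, mt-Cytb and mt-Atp8. The copies lay side by side on the minus strand of chromosome 1, from Gm28439, a copy of the first 876 bases of mt-Nd4, at chr1:24611535-24612410 to Gm29216, a copy of bases 1054 to 1545 of mt-Co1, at chr1:24615706-24616197. Gm28661 at chr1:24614885-24615565 matched mt-Co2 with 0 differing bases over 681, and Gm10925, Gm28437 and Gm28439 matched mt-Atp6, mt-Co3 and mt-Nd4 with 0 differing bases over 678, 783 and 876.

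The start of mt-Co2 at chrM:7013-7132, whose gene makes a subunit of the copper centre of cytochrome c oxidase, is shown because the same 120 bases begin Gm28661.
mt-Co2 and Gm28661: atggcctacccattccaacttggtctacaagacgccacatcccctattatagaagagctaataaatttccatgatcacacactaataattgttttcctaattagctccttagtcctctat
The 5′ end of the copied stretch of mt-Co1, which makes the catalytic subunit of cytochrome c oxidase, is shown with its copy because the only bases that tell them apart lie there. The stretch is chrM:6381-6460, the copy chr1:24616118-24616197 on the minus strand, and capitals mark the differing bases.
mt-Co1: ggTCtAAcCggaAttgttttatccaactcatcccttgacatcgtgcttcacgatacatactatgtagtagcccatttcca
Gm29216: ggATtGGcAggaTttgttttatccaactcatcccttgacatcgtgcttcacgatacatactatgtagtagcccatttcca
With positions counted from 1 at the 5′ end of mt-Co1 and the base of mt-Co1 first, the differences were T1056A, C1057T, A1059G, A1060G, C1062A and A1066T, all 6 within the first bases of a copied stretch of 492. From there to the end of mt-Co1 the gene and its copy were identical.

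Among the 10 members tested in the ANXA2 table, those with nearly full copies were the lowest in level per length. In the ANXA2 table mt-Co2 stood at 26.9 normalised reads per kb in ANXA2 knockout and 51.6 in WT libraries, mt-Atp6 at 60.0 and 99.7, and mt-Co3 at 63.6 and 104. The tested members with few or no shared windows were higher on the same scale. mt-Cytb had 6917 normalised reads per kb in ANXA2 knockout and 11271 in WT libraries, mt-Nd1 3729 and 5473, and mt-Nd5 954 and 1546, and mt-Nd6, the only member encoded on the other strand, had 387 and 498. The short mt-Atp8 was a row of the ANXA5 table alone. It stood at 9.89 normalised reads per kb in ANXA5 knockout and 6.53 in WT libraries, below mt-Co2 there at 47.5 and 56.7. Its 0% of shared windows holds for annotated transcripts only. The gene starts between mt-Co2 and mt-Atp6. Bases between their copies Gm28661 and Gm10925 that belong to no annotated transcript were not searched. The copy Gm28661 was itself a row, with 24.8, 13.3 and 18.4 normalised reads in ANXA2 knockout libraries and 30.7, 39.0, 22.1 and 40.3 in WT libraries, close to the values of mt-Co2 given further on. How the authors' counting treated reads with several positions is not given in the sources used here, and the part of the copies in these low levels was not tested. Levels and differences of mt-Co2, mt-Co3 and mt-Atp6 are therefore those of the few reads that were assigned to them.

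**Figure D1:**
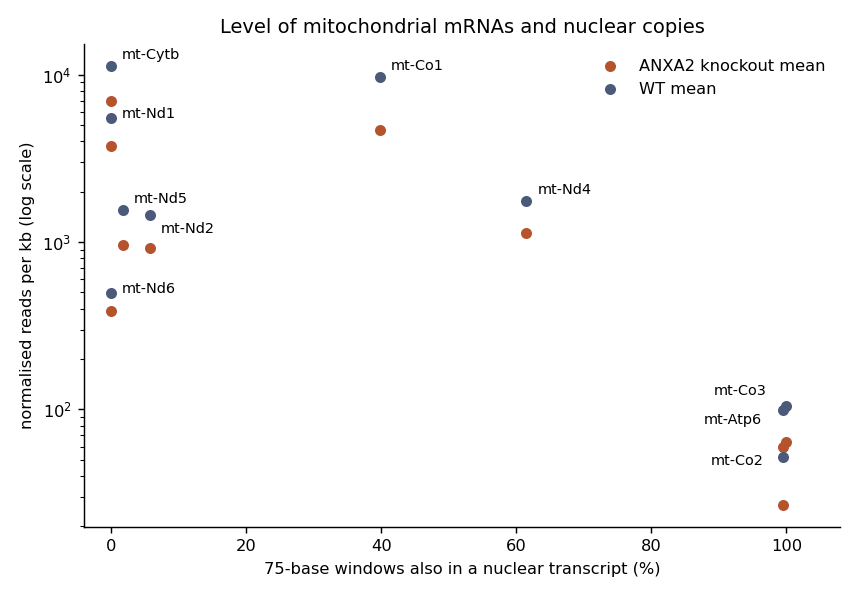
Mean normalised reads per kb (log scale) of the 10 tested mitochondrial members in ANXA2 knockout and WT libraries of the ANXA2 table, against the percentage of their 75-base windows that also occur in an annotated nuclear transcript. mt-Co2, mt-Co3 and mt-Atp6, with 99.5 to 99.9% shared windows, sit at 26.9 to 104 reads per kb, and all others are at 387 or more in both groups.

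In ANXA2 knockout cells every tested mitochondrial mRNA had a lower mean than in WT cells, with the knockout at 48.1 to 77.6% of the WT mean, while most nuclear subunits lay slightly above WT. No member of either genome passed limma's test after adjustment over all 16123 tested genes. Of the 12 mitochondrial members, 10 passed the filter on low values, mt-Nd3 was too low and mt-Atp8 was not a row of this table. mt-Nd4l was a row of neither table and is not among the 12.

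Of the catalytic core of complex IV, mt-Co1 had 7328, 5369.6 and 8836 normalised reads in the 3 ANXA2 knockout libraries, against 20479.8, 16013, 11092 and 12104 in WT libraries 1 to 4. Every knockout library was below every WT library, and WT libraries 1 and 2 were the highest. Its log2 difference was -1.04 (SE 0.243; limma adjusted p = 0.392). mt-Co2 had 16.2, 11.6 and 27.6 normalised reads in ANXA2 knockout libraries, against 30.7, 43.9, 34.9 and 31.7 in WT libraries. The groups did not overlap (log2 difference -0.97, SE 0.323). mt-Co3, a further core subunit, had 39.9, 37.3 and 72.5 normalised reads in ANXA2 knockout libraries, against 105.9, 77.1, 62.9 and 81.6 in WT libraries. Here library 4 of the knockout reached into the WT range (log2 difference -0.74, SE 0.285).

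The complex I genes encode membrane subunits of the proton-pumping arm. mt-Nd4 had 1479, 1387 and 1784 normalised reads in ANXA2 knockout libraries, against 2891, 2629, 2020.4 and 2108 in WT libraries. mt-Nd2 had 932, 842 and 1111 in ANXA2 knockout libraries, against 1909, 1636, 1254 and 1236 in WT libraries. For both genes all knockout libraries were below all WT libraries, and both log2 differences were -0.63 (SE 0.154 for mt-Nd4 and 0.176 for mt-Nd2). mt-Nd5 had 1460.3, 1396 and 2365 normalised reads in ANXA2 knockout libraries, against 3378, 3089, 2314 and 2499 in WT libraries (log2 difference -0.72, SE 0.208). mt-Nd1 had 3399, 2842 and 4464 in ANXA2 knockout libraries, against 6592, 5661, 4407 and 4289.5 in WT libraries (log2 difference -0.56, SE 0.198). In both, knockout library 4 lay within the WT range and the other two were below it.

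mt-Nd6, transcribed from the opposite strand to the rest, had 192, 146 and 264 normalised reads in ANXA2 knockout libraries, against 285, 274, 241 and 234 in WT libraries. Its log2 difference of -0.40 (SE 0.203) was the closest to 0 of the 10, and the groups overlapped. mt-Cytb, the haem-bearing core of complex III, had 8317, 6032 and 9389 normalised reads in ANXA2 knockout libraries, against 16726, 14471, 9826 and 10551.5 in WT libraries, with no overlap (log2 difference -0.69, SE 0.224). mt-Atp6, part of the proton channel of ATP synthase, had 37.7, 32.9 and 52.1 normalised reads in ANXA2 knockout libraries, against 75.2, 76.3, 55.9 and 64.3 in WT libraries, again with no overlap (log2 difference -0.73, SE 0.231). The untested mt-Nd3 had 3.23, 3.55 and 21.4 normalised reads in ANXA2 knockout libraries, against 3.18, 2.49, 3.49 and 1.92 in WT libraries, so knockout library 4 stood apart from all others.

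Counted over the tested mitochondrial members, 0 of 10 were called at an adjusted p under 0.05, where 0.112% of all genes were (18 of 16123). At an unadjusted p under 0.05 there were 9 of 10, all lower in the knockout, against 8.69% of all genes in either direction. In 6 of 10 every knockout library was below every WT library, against 4.63% of all genes. These counts are not those of independent genes: knockout library 3 was the lowest and library 4 the highest of its group in all 10. Of the 5 members with under 10% shared windows, mt-Nd2 and mt-Cytb were separate, and mt-Nd6 had an unadjusted limma p of 0.08. The median log2 difference was -0.71 over the 10 and 0.02 over all tested genes, and it was -0.63 over the 5 with under 10% shared windows. edgeR on the recovered reads called 0 of the 10, and 21 of all 16123 genes. DESeq2 on the same reads called mt-Co1 alone of the 10 (adjusted p = 0.0104), and 104 of all 16123 genes. In the authors' deposited table mt-Co1 was also the only member under 0.05, with an adjusted p of 0.0109, and mt-Nd4 had 0.0592. With log2 Xist as a covariate, limma called 3: mt-Co1, mt-Nd4 and mt-Nd2 (adjusted p = 0.0322, 0.0342 and 0.0381). That fit called 284 of all 16123 genes, against 18 without the covariate. WT libraries 1 and 2, with high Xist, were also the highest in mt-Co1, mt-Cytb, mt-Nd1, mt-Nd2, mt-Nd4, mt-Nd5, mt-Nd6 and mt-Atp6. The part of cell sex in the differences was not tested beyond this covariate.

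**Figure D2:**
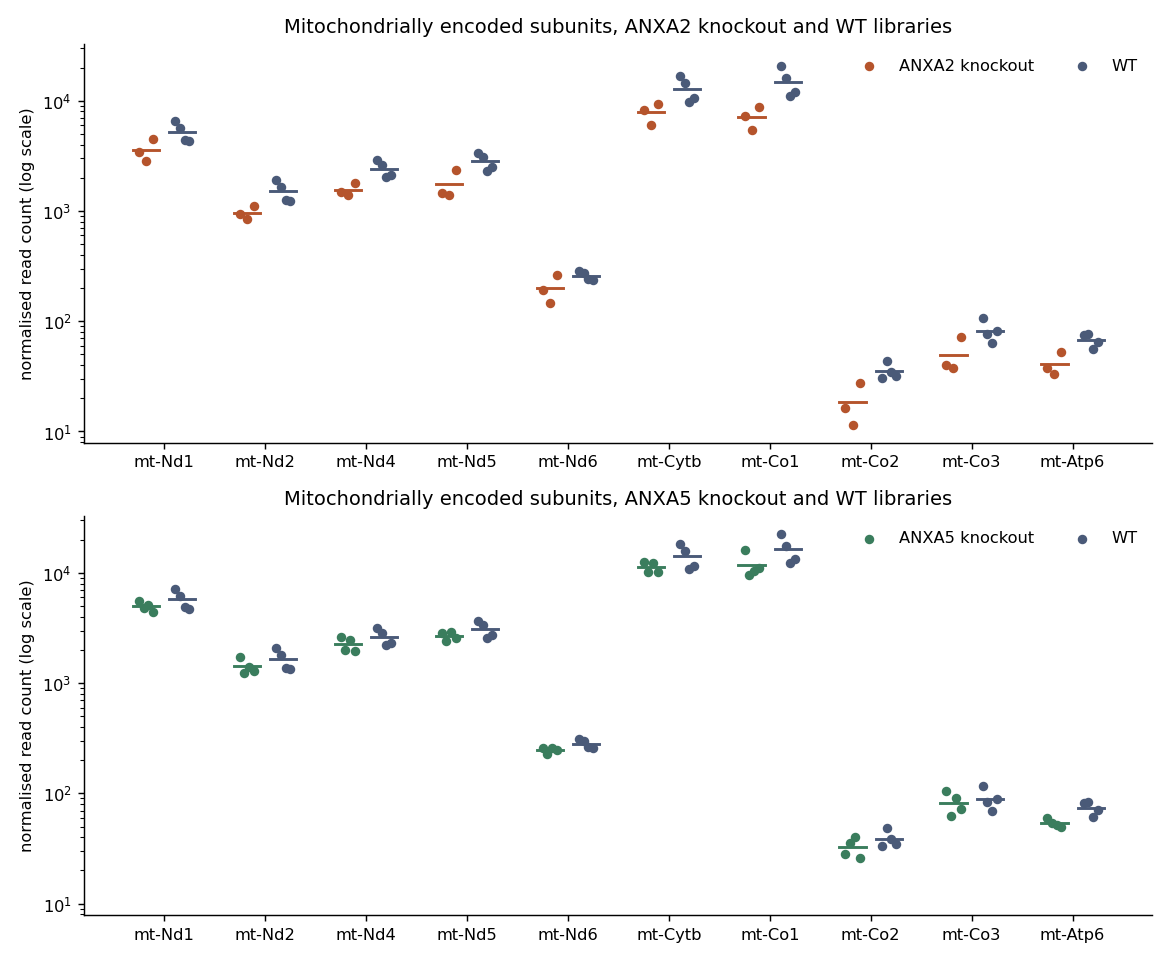
Normalised read counts (log scale) of the 10 tested mitochondrial members, 1 point per library and a bar at each group mean, knockout to the left of WT, with the ANXA2 table above and the ANXA5 table below. All ANXA2 knockout points of mt-Co1, mt-Cytb, mt-Nd2, mt-Nd4, mt-Co2 and mt-Atp6 lie below all WT points, while for the ANXA5 knockout only mt-Atp6 separates.

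The rRNAs of the mitochondrial ribosome, transcribed from the same strand as most mRNAs but outside the member list, differed in the same direction. mt-Rnr2 had 8115, 9399 and 16341 normalised reads in ANXA2 knockout libraries, against 31282, 27117, 14376 and 24437 in WT libraries (log2 difference -1.12, SE 0.31; limma adjusted p = 0.476), and library 4 of the knockout overlapped WT library 3. The nuclear-retained RNA Neat1 was also lower, at 1905, 1428 and 1854 normalised reads in ANXA2 knockout libraries, against 2603, 3718, 2458 and 2279 in WT libraries (log2 difference -0.66; limma adjusted p = 0.476), and all 4 tested nuclear-retained RNAs had negative differences. The 8 erythroid markers summed to 17970.2 to 37785 normalised reads in ANXA2 knockout and 19924 to 68048 in WT libraries, and all 8 had negative differences. Of all 16123 tested genes 7402 had negative differences. At an unadjusted limma p under 0.05 there were 2 of the 4 nuclear-retained RNAs and 0 of the 8 erythroid markers, against 8.69% of all genes. The part of these in the mitochondrial difference was not tested, and in bulk RNA fewer cells of a type and less RNA per cell cannot be told apart.

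The nuclear subunits of the ANXA2 knockout were spread narrowly around WT, from a log2 difference of -0.13 (Uqcrc2, a core protein of complex III) to 0.59 (Cox7a1, the muscle form of a complex IV subunit). Of 82 tested, 69 lay above 0 (84.1%), against 54.1% of all genes, and their median was 0.16. limma called 0 of 82, as did edgeR and DESeq2, and 4 (4.88%) had an unadjusted p under 0.05, all higher in the knockout, a smaller share than the 8.69% of all genes. By complex the medians were 0.16 for complex I (36 tested), 0.09 for complex II (4), 0.23 for complex III (8), 0.18 for complex IV (17) and 0.13 for complex V (17). Ndufa11b, a complex I gene at 1.08 to 2.67 normalised reads in ANXA2 knockout and 2.49 to 4.80 in WT libraries, was too low to test.

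Ndufa13, an accessory subunit of complex I also known as GRIM-19, had 1503, 1416 and 1906 normalised reads in ANXA2 knockout libraries, against 1247, 1119.9, 956 and 1371 in WT libraries. Every knockout library was above every WT library (log2 difference 0.46, SE 0.154; limma adjusted p = 0.523). Cox6a1, the widely expressed form of complex IV subunit VIa, had 3513, 3478 and 4665 normalised reads in ANXA2 knockout libraries, against 3122, 2929, 2664 and 3442 in WT libraries (log2 difference 0.35, SE 0.139). Uqcrc1, a core protein of complex III, had 5814, 5392 and 5173 normalised reads in ANXA2 knockout libraries, against 4617, 4554, 4672 and 4878 in WT libraries (log2 difference 0.22, SE 0.0937). Cox6a1 and Uqcrc1 also did not overlap with WT, and neither did Sdhb, the iron-sulphur subunit of complex II, so that 4 of 82 were separate and higher, against 4.56% of all genes. Uqcr11, a small subunit of complex III, had a log2 difference of 0.47 (SE 0.206), but library 3 of the knockout, at 850.4, lay inside the WT range of 576 to 965.

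Complex II is the only complex made of nuclear subunits alone, and its subunits lay close to WT. Sdha, the flavoprotein, had 7109, 6837 and 6191 normalised reads in ANXA2 knockout libraries, against 6665, 6376, 6695 and 6576 in WT libraries (log2 difference 0.03, SE 0.0978). Sdhb had 2339.8, 2332.5 and 2514 in ANXA2 knockout libraries, against 2250.3, 2097, 2033 and 2281.5 in WT libraries (log2 difference 0.15, SE 0.0925). The membrane anchors Sdhc and Sdhd had log2 differences of 0.15 (SE 0.114) and 0.04 (SE 0.104). Atp5b and Atp5a1, which form the catalytic head of ATP synthase, had log2 differences of -0.03 (SE 0.113) and 0.02 (SE 0.103), with Atp5b at 10037 normalised reads per kb in ANXA2 knockout and 10231 in WT libraries. The smallest p of complex V was that of Atp5o, the stalk subunit known as OSCP, which had 1523, 1509 and 1812.5 normalised reads in ANXA2 knockout libraries, against 1360.4, 1374, 1173 and 1649 in WT libraries. Its log2 difference was 0.22 (SE 0.134), and WT library 4 lay among the knockout values.

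**Figure D3:**
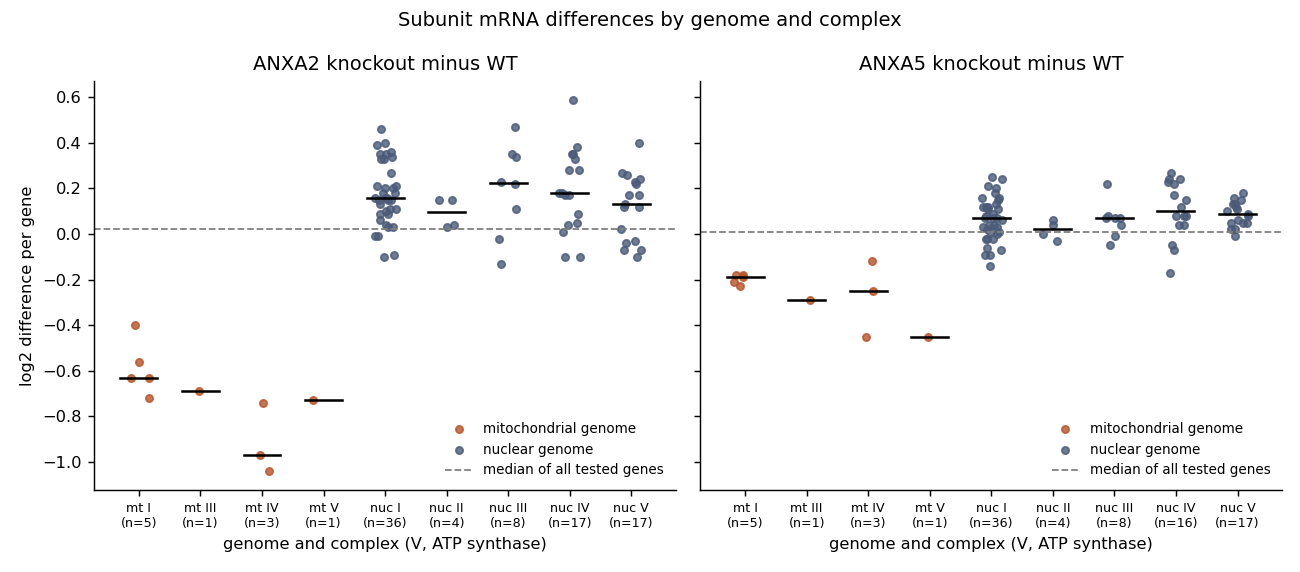
Log2 difference of each tested member, knockout minus WT, by genome and complex (mt, mitochondrial; nuc, nuclear; V, ATP synthase), with black bars at the medians and a dashed line at the median of all tested genes. In the ANXA2 comparison all 10 tested mitochondrial members lie at -0.40 or lower and all 82 tested nuclear members at -0.13 or higher, and in the ANXA5 comparison the mitochondrial members lie between -0.45 and -0.12.

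As a share of all reads on genes, the mitochondrial members took 0.0785, 0.0637 and 0.106% in ANXA2 knockout libraries, against 0.213, 0.182, 0.114 and 0.127% in WT libraries. The groups did not overlap, and the knockout mean was 52.0% of the WT mean. The nuclear members took 0.46, 0.468 and 0.579% in ANXA2 knockout libraries, against 0.55, 0.54, 0.422 and 0.547% in WT libraries, and here the groups overlapped. Put against each other, there were 17.1, 13.6 and 18.4 mitochondrial reads per 100 nuclear subunit reads in ANXA2 knockout libraries, against 38.7, 33.7, 27.1 and 23.2 in WT libraries. These shares rest on 20369 to 27815 mitochondrial reads per ANXA2 knockout library and 26888 to 53045 per WT library, so counting error is small beside the spread between libraries. They hold only reads that were assigned to the mitochondrial genes, so reads that also lie in nuclear copies may be missing from them. mt-Co1, mt-Cytb and mt-Nd1 had the highest values of the mitochondrial members in every library.

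**Figure D4:**
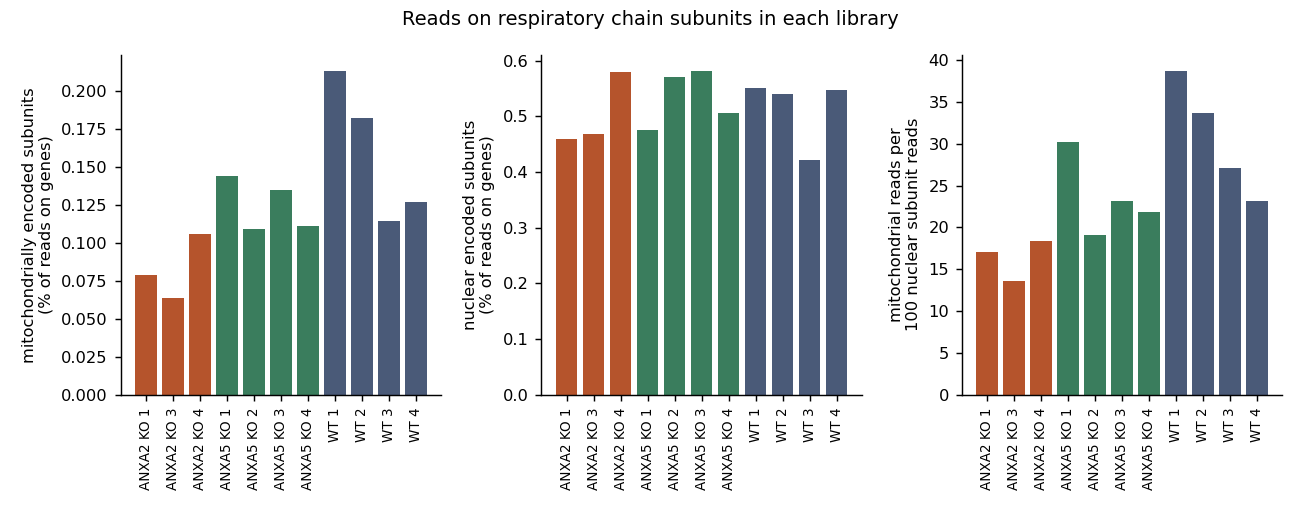
Reads on mitochondrial members (left) and nuclear members (middle) as a percentage of all reads on genes, and mitochondrial reads per 100 nuclear subunit reads (right), 1 bar per library. The 3 ANXA2 knockout libraries have 13.6 to 18.4 mitochondrial reads per 100 nuclear ones, the ANXA5 knockout libraries 19.1 to 30.2 and the WT libraries 23.2 to 38.7.

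In ANXA5 knockout cells the mitochondrial mRNAs were again below WT on average, by less, and mostly with overlapping libraries. All 10 tested members had negative log2 differences, from -0.45 to -0.12, with a median of -0.22 against 0.01 over all 16224 tested genes, and -0.19 over the same 5 with under 10% shared windows. limma called 0 of 10 where it called 0.0308% of all genes (5 of 16224), and edgeR and DESeq2 called 0. At an unadjusted p under 0.05 there was 1 of 10, mt-Atp6, against 11.9% of all genes, and it was also the only one whose knockout libraries were all below all WT libraries, against 3.36% of all genes. These comparisons share the WT libraries with those of the ANXA2 knockout, so a high WT library moves both.

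mt-Atp6 had 59.4, 53.9, 51.9 and 49.95 normalised reads in ANXA5 knockout libraries, against 82.3, 83.5, 61.7 and 70.5 in WT libraries (log2 difference -0.45, SE 0.166; limma adjusted p = 0.346). mt-Co1 had 16314, 9529, 10494 and 11110.4 normalised reads in ANXA5 knockout libraries, against 22398, 17527, 12250.4 and 13272 in WT libraries (log2 difference -0.45, SE 0.217). Knockout library 1 of mt-Co1 lay among the WT values and the other three were below all of them. mt-Cytb had 12682.5, 10130.5, 12321.5 and 10259 normalised reads in ANXA5 knockout libraries, against 18293, 15839.5, 10852 and 11570.2 in WT libraries (log2 difference -0.29, SE 0.172). mt-Nd1 had 5574, 4846, 5144 and 4439.9 in ANXA5 knockout libraries, against 7209.5, 6196, 4867 and 4704 in WT libraries (log2 difference -0.18, SE 0.142). In both genes the knockout values spread around WT libraries 3 and 4 and stayed below WT libraries 1 and 2.

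mt-Nd2, mt-Nd4, mt-Nd5 and mt-Nd6 had log2 differences of -0.21, -0.23, -0.19 and -0.18 (SE 0.158, 0.142, 0.127 and 0.11), mt-Co2 one of -0.25 (SE 0.219) and mt-Co3 one of -0.12 (SE 0.215). mt-Atp8, which shares its transcript with mt-Atp6 and was a row of this table alone, had 2.48, 2.07, 1.89 and 1.64 normalised reads in ANXA5 knockout libraries, against 2.32, 0.907, 0 and 2.104 in WT libraries, too few to test. The mitochondrial members took 0.144, 0.109, 0.135 and 0.111% of reads in ANXA5 knockout libraries, and the knockout mean was 78.5% of the WT mean. mt-Rnr2 had 31889, 19562, 24094 and 19557 normalised reads in ANXA5 knockout libraries, against 34212, 29681, 15877 and 26796 in WT libraries (log2 difference -0.14, SE 0.244), so all knockout values lay inside the WT range.

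Of 81 nuclear members tested in the ANXA5 comparison, 65 lay above 0 (80.2%), against 52.0% of all genes, with a median of 0.07. limma, edgeR and DESeq2 called 0, and 2 (2.47%) had an unadjusted p under 0.05, a smaller share than the 11.9% of all genes. Cox5a, a nuclear encoded subunit of complex IV, had 1325, 1367, 1411 and 1340.5 normalised reads in ANXA5 knockout libraries, against 1024, 1107, 974 and 1456 in WT libraries (log2 difference 0.27, SE 0.121; limma adjusted p = 0.414). WT library 4 was above all knockout libraries and the other WT libraries were below them. Cox6a1 had 3499, 4379, 4093 and 3689.8 normalised reads in ANXA5 knockout libraries, against 3415, 3206, 2943 and 3775 in WT libraries (log2 difference 0.23, SE 0.104). Uqcrq, a small subunit of complex III, had a log2 difference of 0.22 (SE 0.167) and Atp5g1, a gene for subunit c of ATP synthase, one of 0.16 (SE 0.125), the smallest p of their complexes. Cox6a1 is also among the 4 genes named by unadjusted p in the ANXA2 comparison, which uses the same WT libraries.

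0 of 81 nuclear members had all ANXA5 knockout libraries above all WT libraries, against 3.01% of all genes, and 1 had them all below. This was Ndufs1, the largest subunit of complex I and a carrier of iron-sulphur clusters, with 2166, 2235, 2214 and 2253 normalised reads in ANXA5 knockout libraries, against 2398.5, 2382, 2384.5 and 2273 in WT libraries (log2 difference -0.09, SE 0.0657). In ANXA2 knockout libraries it had 2095, 1993 and 1973 normalised reads, against 2193, 2176, 2159 and 2073 in WT libraries of that table, also with a log2 difference of -0.09. By complex the ANXA5 medians were 0.07 for complex I, 0.02 for complex II, 0.07 for complex III, 0.10 for complex IV and 0.09 for complex V.

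Both knockouts were compared directly in a joint edgeR fit of the recovered reads of all 11 libraries, which is the test of whether the mitochondrial difference of the ANXA2 knockout is larger than that of the ANXA5 knockout. All 10 mitochondrial members were lower in ANXA2 knockout than in ANXA5 knockout libraries, with a median log2 difference of -0.43, against -0.01 over all 16791 genes. 0 of 10 were called, where 0.262% of all genes were, and DESeq2 also called 0. At an unadjusted p under 0.05 there were 5 of 10, against 13.9% of all genes: mt-Nd5 (log2 difference -0.51), mt-Nd4 (-0.42), mt-Nd2 (-0.44), mt-Co1 (-0.60) and mt-Co2 (-0.70), with edgeR adjusted p from 0.288 to 0.355. The 10 mitochondrial members do not count as independent genes here either. Of 81 nuclear members 0 were called and 0 had an unadjusted p under 0.05, and their median was 0.07. Thus no single subunit was shown to differ between the knockouts after adjustment.

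Several nuclear subunits have forms that tissues exchange for each other, and these were given whatever their values. In complex IV the common forms were far above the tissue-restricted ones per length. Cox4i1 stood at 5671 normalised reads per kb in ANXA2 knockout and 5331 in WT libraries, against 32.4 and 27.1 for Cox4i2, the form linked to lung and low oxygen. Cox6a1 stood at 6805 in ANXA2 knockout and 5323 in WT libraries, against 83.1 and 68.0 for the heart and muscle form Cox6a2. The muscle form Cox7a1 had 15.1, 9.77 and 14.3 normalised reads in ANXA2 knockout libraries, against 13.8, 5.80, 8.15 and 6.72 in WT libraries, and its log2 difference of 0.59 had an SE of 0.379. Cox6b2, the testis form, had 63.6, 105.7 and 227 normalised reads in ANXA2 knockout libraries, against 85.8, 129.3, 125 and 167 in WT libraries, so its knockout libraries alone spanned the WT range (log2 difference -0.10, SE 0.4).

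Ndufa4l2, a hypoxia-induced relative of the complex IV subunit Ndufa4, had 2769.8, 1081 and 1041 normalised reads in ANXA2 knockout libraries, against 1442, 1211, 1175 and 842 in WT libraries. Library 1 of the knockout stood apart and the other two lay inside the WT range: the log2 difference was 0.35 (SE 0.335) with all libraries and -0.11 without library 1. In ANXA5 knockout libraries it had 1432, 939, 1105 and 1468 normalised reads, against 1577, 1326, 1298 and 924 in WT libraries (log2 difference -0.05, SE 0.186). Ndufa4 itself had log2 differences of 0.04 (SE 0.272) in the ANXA2 and 0.08 (SE 0.2) in the ANXA5 comparison. The genes for subunit c, which forms the rotor ring of ATP synthase, encode the same mature protein, and their log2 differences in the ANXA2 comparison were 0.23 for Atp5g1 (SE 0.168), -0.04 for Atp5g2 (SE 0.231) and -0.10 for Atp5g3 (SE 0.136). Atpif1, an inhibitor of ATP synthase outside the member list, had a log2 difference of 0.13 (SE 0.215) in the ANXA2 and 0.15 (SE 0.168) in the ANXA5 comparison.

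The nuclear members went up and down together from library to library within each group. WT library 3 was the lowest WT library in 73 of 82 nuclear members of the ANXA2 table and WT library 4 the highest in 59, and in the ANXA2 knockout library 4 was the highest in 66. In the ANXA5 knockout, library 2 was the highest in 58 of 81. Median log2 deviations of the nuclear members from their group mean were -0.11, -0.15 and 0.28 in ANXA2 knockout libraries 1, 3 and 4, and 0.08, 0.02, -0.32 and 0.21 in WT libraries 1 to 4. Many of these subunits are small, and other coding genes with transcripts under 1 kb, 655 in number, moved with them: their median deviations were -0.10, -0.13 and 0.23 in ANXA2 knockout and 0.08, 0.05, -0.24 and 0.15 in WT libraries. The 48 nuclear members with transcripts under 1 kb had a median log2 difference of 0.19 between ANXA2 knockout and WT, and 45 were above 0, while the 33 longer ones had 0.09 and 23 above 0. Other coding genes under 1 kb had a median of 0.09, with 65.2% above 0, and those of 1 kb or more 0.03. The part of transcript length in the differences of the nuclear members was not tested.

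The mitochondrial members followed another order in WT libraries and the same order in ANXA2 knockout libraries. Their median deviations were -0.05, -0.32 and 0.36 in ANXA2 knockout libraries 1, 3 and 4, and 0.32, 0.14, -0.25 and -0.17 in WT libraries 1 to 4. Knockout library 3 was the lowest and library 4 the highest of its group in all 10, and WT library 1 was the highest WT library in 8 of 10. WT library 4, highest for the nuclear members, was thus below its group mean for the mitochondrial ones, and WT library 3 was low for both.

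**Figure D5:**
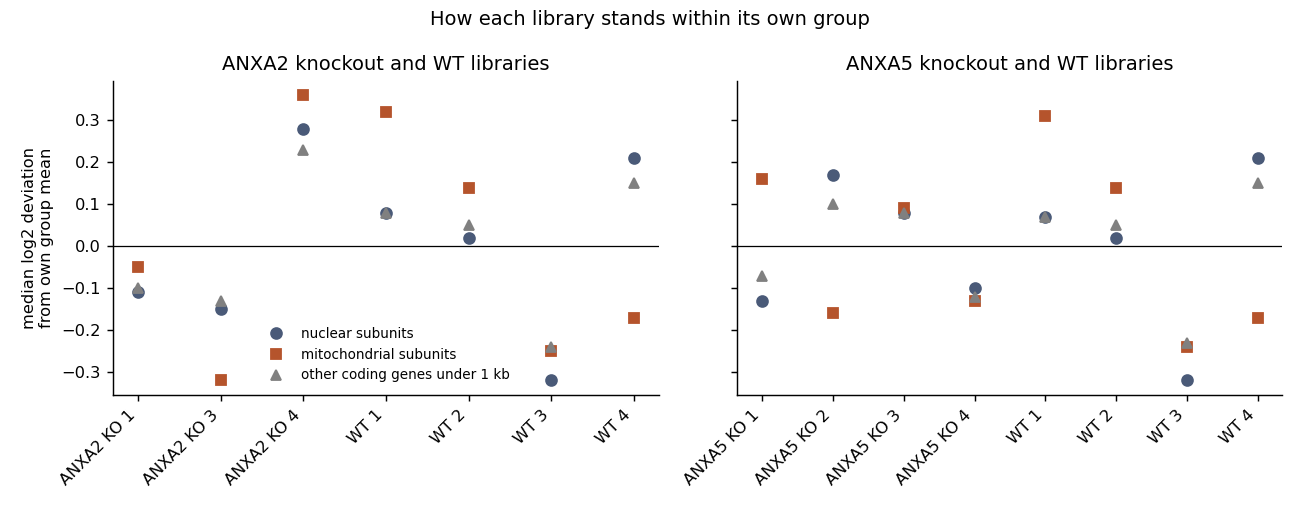
Median log2 deviation of each library from the mean of its own group, for nuclear members, mitochondrial members and other coding genes with transcripts under 1 kb, in the ANXA2 table (left) and the ANXA5 table (right). Nuclear members and short genes lie close together in every library, with WT 3 lowest at -0.32 and -0.24 on the left, while mitochondrial members take another order in the WT and ANXA5 knockout libraries.

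Nuclear subunit genes are known targets of the activators NRF1, NRF2 (an ETS family factor, GABP) and YY1, and their promoters were searched for a short form of each site: GCATGCG for NRF1, CCGGAAG for ETS and AAGATGGC for YY1, on both strands, over the 250 bases before and 50 after the transcription start as given by RefSeq on GRCm38. Of 83 nuclear members 67 had a promoter sequence. GCATGCG was present in 11 (16.4%), against 4.01% of all 27025 genes with a promoter and 6.28% of those that are rows of the tables. CCGGAAG was present in 17 (25.4%), against 9.93% and 16.9%, and AAGATGGC in 10 (14.9%), against 3.19% and 4.47%. These letters are a description of the windows and not of binding. The promoters of Cox6a1 and Uqcrc1, both separate from WT in the ANXA2 comparison, are shown with the matches in capitals, 5′ to 3′ along each gene. Both hold CGCATGCG, in which the NRF1 letters of both strands overlap, and Cox6a1 also holds the ETS letters on the other strand. Of the other nuclear members separate from WT there, Sdhb held the NRF1 and ETS letters, and Ndufa13, which had the smallest p of the nuclear members, held none of the 3.
Cox6a1, chr5:115348909-115349208, minus strand: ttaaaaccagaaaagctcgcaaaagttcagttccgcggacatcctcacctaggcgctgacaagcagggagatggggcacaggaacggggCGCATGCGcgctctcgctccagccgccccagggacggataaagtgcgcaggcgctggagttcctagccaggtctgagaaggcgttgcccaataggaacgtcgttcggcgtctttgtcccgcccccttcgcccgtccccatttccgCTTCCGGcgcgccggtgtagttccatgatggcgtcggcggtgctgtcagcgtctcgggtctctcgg
Uqcrc1, chr9:108936398-108936697, plus strand: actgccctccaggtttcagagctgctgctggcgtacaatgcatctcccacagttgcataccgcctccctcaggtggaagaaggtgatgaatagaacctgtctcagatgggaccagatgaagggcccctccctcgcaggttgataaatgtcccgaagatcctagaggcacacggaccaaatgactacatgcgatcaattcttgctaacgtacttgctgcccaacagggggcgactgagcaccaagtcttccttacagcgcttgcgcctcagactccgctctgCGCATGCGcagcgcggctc
In the ANXA2 comparison, members with the NRF1 letters had a median log2 difference of 0.17 and those without 0.16; with and without the ETS letters it was 0.17 and 0.16, and with and without the YY1 letters 0.18 and 0.16. In the ANXA5 comparison the 3 pairs were 0.09 and 0.07, 0.09 and 0.08, and 0.07 and 0.08.

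Anxa2 lies at chr9:69453620-69491795, and 5 members share chromosome 9 with it: Atp5l, Sdhd, Cox5a, Cox7a2 and Uqcrc1. The nearest, Cox7a2, starts 10.3 Mb away and Uqcrc1 39.5 Mb away. In the ANXA2 comparison their log2 differences were 0.12 for Atp5l (SE 0.253), 0.04 for Sdhd, 0.17 for Cox5a (SE 0.195), 0.05 for Cox7a2 (SE 0.234) and 0.22 for Uqcrc1.

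Genes that build, feed and regulate the chain were then counted from lists of known function, and limma called 0 in each. Assembly factors, which insert cofactors and join subunits, had a median log2 difference of 0.02 in both comparisons (47 tested). Uqcc2, which helps to make cytochrome b, had 1114, 928.5 and 1085 normalised reads in ANXA2 knockout libraries, against 913, 861, 652 and 913 in WT libraries (log2 difference 0.33, SE 0.145), without overlap. Sdhaf3, an assembly factor of complex II, had 58.6, 65.3, 58.5 and 52.4 normalised reads in ANXA5 knockout libraries, against 114.7, 82.6, 78.5 and 77.9 in WT libraries (log2 difference -0.57, SE 0.176; limma adjusted p = 0.305), and 67.9, 46.2 and 60.2 in ANXA2 knockout libraries, against 104.9, 75.4, 71.0 and 71.0 in WT libraries. It was below WT in every library of both knockouts. Sdhaf3 was named for its small p, and both comparisons use the same WT libraries. In each comparison 1 of the 47 assembly factors was separate and lower, against 4.63% of all genes for the ANXA2 and 3.36% for the ANXA5 knockout.

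The 31 genes of mitochondrial transcription, replication and RNA handling had a median log2 difference of -0.11 in the ANXA2 comparison. Of these 22 were below 0, as were 7402 of all 16123 tested genes. At an unadjusted limma p under 0.05 there was 1 of 31 (3.23%), a smaller share than the 8.69% of all genes. Polg2, the accessory subunit of the polymerase that copies mitochondrial DNA, had 212, 173 and 238 normalised reads in ANXA2 knockout libraries, against 338, 309, 306 and 277 in WT libraries (log2 difference -0.57, SE 0.149; limma adjusted p = 0.462). In ANXA5 knockout libraries it had 250, 252, 229 and 169.5, against 369.6, 338, 338 and 304 in WT libraries (log2 difference -0.60, SE 0.144; limma adjusted p = 0.23). All libraries of both knockouts were thus below all WT libraries for Polg2. It was named for the smallest p of its list, and both comparisons use the same WT libraries. In each comparison 2 of the 31 genes were separate and lower, against 4.63% of all genes for the ANXA2 and 3.36% for the ANXA5 knockout. Pprc1, a coactivator of nuclear genes for mitochondria, had 2835.5, 2195 and 1904 normalised reads in ANXA2 knockout libraries, against 1373, 1327, 1974 and 1742 in WT libraries (log2 difference 0.53, SE 0.182), with overlap.

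The 79 genes of the mitochondrial ribosome had a median log2 difference of 0.05 in both comparisons, the 18 TCA cycle genes -0.02 in both, and the 24 genes of import, membranes and mitochondrial mass -0.00 in the ANXA2 and -0.02 in the ANXA5 comparison. Vdac1, the main pore of the outer membrane, had 1824, 1828 and 2192 normalised reads in ANXA2 knockout libraries, against 2559.7, 2405, 2118 and 2304.5 in WT libraries (log2 difference -0.27, SE 0.112), with overlap in library 4. In ANXA5 knockout libraries Ucp2, an inner membrane carrier, had 13644, 14049, 14639.6 and 14881 normalised reads, against 8472.5, 12113, 11535 and 13624 in WT libraries (log2 difference 0.34, SE 0.138; limma adjusted p = 0.377), without overlap. Genes of coenzyme Q synthesis and cytochrome c had a median of 0.00 in the ANXA2 and -0.03 in the ANXA5 comparison (15 tested), nuclear regulators 0.01 and 0.12 (14), and uncoupling and other electron entry genes 0.05 and 0.06 (7). Perm1, a muscle regulator of mitochondrial genes, had 28.1, 31.1, 27.4 and 27.8 normalised reads in ANXA5 knockout libraries, against 18.5, 13.6, 19.3 and 23.1 in WT libraries (log2 difference 0.61, SE 0.227; limma adjusted p = 0.353), without overlap.

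The remaining genes with the smallest p of these lists did not pass limma's test either. In the ANXA2 comparison Suclg2, a subunit of succinyl-CoA ligase, had 537, 593 and 459 normalised reads in ANXA2 knockout libraries, against 762, 632, 623 and 615 in WT libraries (log2 difference -0.31, SE 0.132), without overlap. Coq8b and Mrpl53 were also separate, with knockout libraries above WT (log2 differences 0.32 and 0.42), and Pdss2, Pnpt1, Myc, Mdh2, Mfn2, Dhodh, Etfb and Mrpl50 overlapped, at -0.29, -0.31, 0.65, 0.18, 0.15, 0.21, 0.22 and -0.35. In the ANXA5 comparison Coq4 was separate and above WT (0.29) and Mrpl47 separate and below (-0.42). Acad9, Coq8a, Mterf2, Pprc1, Mdh2, Pdha1, Slc25a5, Slc25a4, Etfb and Mrpl34 overlapped, at -0.19, -0.27, -0.43, 0.27, 0.15, -0.15, 0.14, -0.14, 0.23 and 0.26.

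In the ANXA5 comparison all 11 macrophage, 8 neutrophil, 8 erythroid and 4 adipocyte markers tested had positive log2 differences, with medians of 0.42, 0.37, 0.60 and 1.44. So did 6 of 7 endothelial markers, with a list median of 1.13, against 52% of all genes. The other endothelial marker lay at -0.48. At an unadjusted limma p under 0.05 there were 8 of 11 macrophage, 3 of 8 neutrophil, 0 of 8 erythroid and 3 of 4 adipocyte markers, all higher. Of the endothelial markers 5 were higher and 1, that at -0.48, was lower, against 11.9% of all genes in either direction. The adipocyte markers summed to 5919 to 9389 normalised reads in ANXA5 knockout and 5405 to 6403 in WT libraries, and the endothelial ones to 4318 to 6739 in ANXA5 knockout and 3819 to 5236 in WT libraries. In the ANXA2 comparison the medians were 0.07 for macrophage, 0.23 for neutrophil, 0.56 for adipocyte, 0.33 for endothelial, -0.03 for plasma and B cell and 0.19 for stromal markers. The plasma cell genes Jchain and Igkc differed more than their list median: Jchain had 1291, 1403 and 1984 normalised reads in ANXA2 knockout libraries, against 984, 948, 529.8 and 848 in WT libraries (log2 difference 0.93, SE 0.235), and Igkc had a log2 difference of 0.70 (SE 0.206), both without overlap. Thy1 and Cd14 were separate and above WT (0.39 and 0.44) and Cxcl12 separate and below (-0.24), while Mrc1, Ltf, Elane, Alas2, Stab2, Flt1, Plin4, Adipoq and Kcnq1ot1 overlapped, at -0.55, 0.26, 0.35, -0.88, 0.67, 0.45, 1.47, 0.62 and -0.62. In the ANXA5 comparison Cd68, Csf1r, Igkc, Flt1, Pecam1 and Fabp4 were separate and above WT, at 0.37, 0.44, 0.81, 1.66, 0.90 and 1.58. Vcam1, Col1a1, Elane, Mpo, Hba-a2, Hbb-bt, Jchain, Neat1 and Malat1 overlapped, at 0.39, 0.59, 0.86, 0.74, 0.71, 0.69, 0.71, -0.70 and -0.46. Adipoq overlapped at WT library 4 alone, with 302, 752, 639.7 and 531 normalised reads in ANXA5 knockout libraries, against 101, 169.7, 264 and 344 in WT libraries. The plasma and B cell list had a median of 0.07 and the stromal list 0.15. limma called 0 of these markers in either comparison, and their part in the subunit differences was not tested.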

How the data were processed

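RNA of 11 libraries was measured by sequencing. Per the submitters' processing notes, Trim Galore, STAR, HTSeq and DESeq2 were used with GRCm39, but the sources used here give no versions. The signal values the authors deposited are read counts divided by a size factor for each library. They returned whole reads in 100% of values within 0.001 and are called normalised reads here. The deposited log2 fold changes and p-values, raw and adjusted, come from DESeq2, and the score column, the Wald statistic per the file headers, was not used. 0 sample columns were left out.

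Because the values are no raw counts, limma-trend was run on log2 (value + 1) within each table, for genes that reached 10 in at least the number of libraries of the smaller group. Differences are knockout minus WT on that scale, which understates changes of low genes. P-values were two-sided and Benjamini-Hochberg adjusted over all tested genes, with 0.05 as threshold. Recovered reads entered edgeR quasi-likelihood and DESeq2 fits, and a joint edgeR fit with TMM scaling for both knockouts. limma 3.58.1, edgeR 4.0.16 and DESeq2 1.42.0 ran in R 4.3.3, and the fits were tested on simulated data. GENCODE vM21 (GRCm38, another build than the submitters') gave transcripts, lengths and positions, and matched all 95 members for positions and 93 for lengths. The read length is not given in the sources used here, so the window of 75 bases was a choice.

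Named were all mitochondrial members, the nuclear member with the smallest p in each complex, the Sdh genes, Anxa2, Anxa5, Xist, alternative forms and, of each list, the 2 genes with the smallest p, of which 1 is not reported here. Uqcr11, Uqcrc2, Atp5b, Atp5a1, Ndufs1 and the chromosome 9 members were named after their values were seen. Members and lists were chosen with earlier results of these data known. Alternatives were TMM scaling, edgeR, DESeq2, pseudocounts of 0.5 and 5, no filter, a minimum of 50, Xist as covariate, the replicate block, and leaving out each library. The medians over the 5 members with few shared windows and a block on column numbers for the ANXA2 knockout were added after seeing the data.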

Additional observations from a re-analysis of the deposited data

Results flagged for a closer look

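The nuclear members together took 0.422% of reads in WT library 3, while the other WT libraries had 0.54 to 0.55%. The gap to the nearest library was 0.922 of the whole range of the WT libraries, in both tables, which hold the same reads. Atp5g3, a gene for subunit c of ATP synthase, had 2132 normalised reads in WT library 3, against 2705 to 2802 in the other WT libraries of the ANXA2 table, a gap of 0.855 of the range. In the ANXA5 table it had 2355, against 2961 to 3073, a gap of 0.844. Ndufs1 had 2273 normalised reads in WT library 4, against 2382 to 2398.5 in the other WT libraries of the ANXA5 table (0.867 of the range), so that the only nuclear member with separate ANXA5 knockout libraries was separated by the narrowest margin at that library. Sdhaf3, the assembly factor, had 104.9 normalised reads in WT library 1 of the ANXA2 table, against 71.0 to 75.4 in the others (0.869), and 114.7 in the ANXA5 table, against 77.9 to 82.6 (0.872). Of the genes from the mitochondrial lists, WT library 1 of the ANXA2 table had 214 normalised reads of Pdss2, against 141 to 150 in the others (0.877), and 762 of Suclg2, against 615 to 632 (0.886). WT library 4 had 5753 normalised reads of Mdh2, against 4878 to 4934 in the other WT libraries of the ANXA2 table (0.936), and 6308 in the ANXA5 table, against 5335 to 5440.4 (0.891). Mterf2 had 72.0 normalised reads in WT library 3, against 97.3 to 102.5 in the other WT libraries of the ANXA5 table (0.83). Of the markers of other cells, Elane had 18845.5 normalised reads in WT library 4, against 7690.8 to 9328 in the other WT libraries of the ANXA2 table (0.853), and 20665 in the ANXA5 table, against 8411 to 10301.9 (0.846). In the ANXA5 knockout, Csf1r had 3976 normalised reads in library 4, against 2695.5 to 2863 in the others (0.869), and Igkc had 14537 in library 2, against 8109 to 8372 (0.959). These gaps exceed Dixon's critical value for 4 libraries, which chance does in about 1 of 20 groups, and 84 groups were looked at in the ANXA2 and 148 in the ANXA5 table.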

How the results depend on the processing

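Of the summary results, 148 alternatives kept the value within its limits and 2 did not. A count of 0 had to stay at 0. A median could move by the SD of the WT libraries' own medians. For mitochondrial and nuclear members this was 0.266 and 0.227 in the ANXA2 and 0.261 and 0.226 in the ANXA5 comparison. The ANXA2 nuclear median of 0.16 and the ANXA5 medians of -0.22 and 0.07 were smaller than their limits, so a move to 0 would have been kept. The count of called mitochondrial members in the ANXA2 comparison, 0 with limma, was 1 with DESeq2 on recovered reads and 3 with Xist as covariate; the cause was not tested. Leaving out each library gave medians of the mitochondrial members from -0.87 to -0.56 and of the nuclear members from 0.05 to 0.24 in the ANXA2 comparison, and from -0.29 to -0.14 and from -0.02 to 0.15 in the ANXA5 comparison, with 0 members called throughout. Of 1033 alternatives for 34 named members, counted once per comparison, 31 turned the sign, over 13 members, none past the threshold. The number of all genes called in the ANXA2 comparison, 18, was 104 with DESeq2, 284 with Xist as covariate, 8 without ANXA2 knockout library 3, 11 without WT library 2 and 10 without WT library 4. In the ANXA5 comparison it was 5, against 282 with DESeq2, 8 without ANXA5 knockout library 3 and 32 without WT library 4. The ANXA2 knockout columns do not carry the numbers of the titles, so they were not read as pairs. By column number, libraries 1, 3 and 4 correlated with the WT libraries of the same number at 0.31, 0.08 and 0.32. Pairs of different number ran from -0.38 to 0.13, below the values of libraries 1 and 4. Whether libraries of the same number share a batch was not tested. A replicate block on the column numbers called 22 genes and 0 members, with medians of -0.65 and 0.18. For the ANXA5 knockout, libraries of the same number correlated at 0.05, -0.07, -0.25 and 0.07, so the numbers were not read as pairs; with a replicate block 8 genes and 0 members were called, and the members' medians were -0.22 and 0.07. At these depths mt-Nd3, mt-Atp8 and Ndufa11b were too low to test, and only windows of annotated transcripts were compared with the mitochondrial genes.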
